A study of Mus musculus with 8 samples.

Results

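The genes of sterol and fatty acid synthesis and of the SREBP system that controls them were compared between the long bones of Hyp and wild-type (WT) mice. The list held 37 genes chosen by name, with earlier results of these data known. A gene was measured by the mean of all probe sets annotated to that 1 symbol. By this rule 36 of the 37 were measured, among 18193 genes in all, with 83 probe sets. Acat2, the cytosolic thiolase that supplies acetoacetyl-CoA, had no such probe set in the annotation used and is not analysed here. The measured members were 16 enzymes of sterol synthesis, 7 regulators of SREBP, 9 enzymes of fatty acid synthesis and 4 genes of sterol transport and LXR response.

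Total RNA of tibia and femur was hybridised to 8 microarrays, 4 from Hyp males and 4 from WT males, all aged 12 days. Hyp mice lack the 3′ part of Phex on the C57BL/6 background and are a model of X-linked hypophosphatemia. The strain of the WT mice is given only as wild type. Every RNA was pooled from 2 bone samples of 1 genotype, and no label says how many animals these came from, so that the p-values rest on how much these samples varied, which may be partly technical.

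Values are taken to be on the log2 scale, with the median of every probe set over the 8 arrays set to 0, which leaves differences and removes levels. For the same reason the presence of bone markers could not be checked, only their differences. Phex differed by -8.31 ± 0.21 (SE) and -5.03 ± 0.20 at its 2 probe sets, with all Hyp arrays below all WT arrays. Whether these probe sets fall inside the deleted part was not checked. WT replicate 3 stood apart on the next-largest axis of variation after genotype (-38.4, against -10.3 to 17.5 on the other arrays). It also had the highest mean of 14 skeletal muscle markers (1.86), while Hyp replicate 2 had the lowest (-1.24). Counts without these 2 arrays are given beside those of the members and of each list.

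Cells make cholesterol from acetyl-CoA through mevalonate, squalene and lanosterol. SREBP transcription factors switch on the enzymes of this route and of fatty acid synthesis. When sterols are plentiful, INSIG proteins hold the SREBP escort SCAP in the endoplasmic reticulum. When they are scarce, SCAP carries SREBP to the Golgi, where the proteases encoded by Mbtps1 and Mbtps2 release the active factor. Oxysterols act in the other direction through the nuclear receptor LXR, which switches on Abca1, Abcg1, Mylip and Srebf1. In bone the pathway is known as the target of nitrogen-containing bisphosphonates, which block farnesyl diphosphate synthase (Fdps) in osteoclasts.

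The promoters of 5 members that fell and of 1 that rose (Mylip) are shown for the sequence boxes at which SREBP and its partner NF-Y are known to bind. They come from RefSeq (GRCm38.p6) and are the 250 bases before the annotated start, 5′ to 3′ on the gene's strand. Capitals mark NF-Y boxes (CCAAT, or ATTGG on the other strand) and the sterol regulatory element (TCACNCCAC).

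Hmgcs1, chr13:119690101-119690350, plus strand: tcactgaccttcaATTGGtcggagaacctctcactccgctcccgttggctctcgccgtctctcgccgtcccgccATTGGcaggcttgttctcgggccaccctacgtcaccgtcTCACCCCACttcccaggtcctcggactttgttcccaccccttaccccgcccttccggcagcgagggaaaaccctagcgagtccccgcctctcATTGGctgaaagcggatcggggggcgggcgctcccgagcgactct

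Cyp51, chr5:4104698-4104947, minus strand: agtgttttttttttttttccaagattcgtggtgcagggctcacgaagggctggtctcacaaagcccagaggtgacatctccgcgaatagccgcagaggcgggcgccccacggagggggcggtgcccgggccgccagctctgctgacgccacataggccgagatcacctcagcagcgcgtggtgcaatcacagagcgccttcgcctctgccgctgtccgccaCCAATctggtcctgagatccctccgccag

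Msmo1, chr8:64733579-64733828, minus strand: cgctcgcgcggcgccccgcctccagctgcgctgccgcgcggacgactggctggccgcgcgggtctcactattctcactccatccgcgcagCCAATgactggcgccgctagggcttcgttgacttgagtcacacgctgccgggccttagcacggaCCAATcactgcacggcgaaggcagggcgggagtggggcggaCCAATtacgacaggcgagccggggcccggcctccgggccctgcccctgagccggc

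Insig1, chr5:28071162-28071411, plus strand: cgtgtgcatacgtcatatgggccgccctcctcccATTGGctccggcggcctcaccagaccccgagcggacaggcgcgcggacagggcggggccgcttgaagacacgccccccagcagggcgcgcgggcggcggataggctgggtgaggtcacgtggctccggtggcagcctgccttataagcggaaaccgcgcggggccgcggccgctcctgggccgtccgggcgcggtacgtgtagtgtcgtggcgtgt

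Insig2, chr1:121332590-121332839, minus strand: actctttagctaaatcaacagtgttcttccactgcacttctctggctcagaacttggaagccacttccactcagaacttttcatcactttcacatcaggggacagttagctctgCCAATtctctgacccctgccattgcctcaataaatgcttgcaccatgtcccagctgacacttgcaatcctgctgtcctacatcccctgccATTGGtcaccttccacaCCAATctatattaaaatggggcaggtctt

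Mylip, chr13:45389492-45389741, plus strand: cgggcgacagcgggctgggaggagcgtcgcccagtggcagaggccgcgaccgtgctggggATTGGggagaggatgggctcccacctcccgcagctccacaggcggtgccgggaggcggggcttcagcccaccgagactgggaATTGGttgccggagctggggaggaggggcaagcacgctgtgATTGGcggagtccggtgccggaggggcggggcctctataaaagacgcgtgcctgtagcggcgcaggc

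The Hmgcs1 promoter held the 1 match to TCACNCCAC found among the members with a promoter. Only this exact spelling of the sterol regulatory element was searched, so variants of it in the other promoters would be missed. A further NF-Y box of Hmgcs1 began 10 bases past the start. For Insig2, 1 of its 3 listed starts is shown. The NF-Y boxes of this gene all lay at the start shown, and starts 2 and 3 held none. RefSeq promoters, each of 250 bases before to 50 after the start, were found for 28 of the 36 measured members. All motifs were searched on both strands, and no boxes of different kinds overlapped in the promoters shown. An NF-Y box stood at 1 start or more of 21 of these 28 genes (75.0%), against 41.1% of all 27025 genes with a promoter and 37.4% of all 32851 promoters. It was present in all 13 sterol enzymes with a promoter, in 4 of 7 regulators and in 3 of 6 fatty acid enzymes. The Sp1 box (GGGCGG) was held by 23 of the 28 genes (82.1%), against 38.2% of all genes (35.7% of all promoters). The sterol regulatory element as spelled occurred in 1.44% of all genes (1.24% of promoters). The DR4 element of LXR was searched only as an exact repeat of AGGTCA with a spacer of 4 bases. It occurred in 4 of 27025 genes (0.0148%) and in none of the 28. A match this rare is hardly to be met in 28 genes, so its absence says nothing about LXR. Abcg1 was among the members without a promoter. NF-Y boxes stood in 6 of 7 members with an entry that fell, both members that rose and have an entry, and 13 of 19 that did not pass. A match of letters is not a binding site, and binding was not measured.

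In Hyp bone 10 of the 36 measured members fell and 3 rose (limma, adjusted p under 0.05 over all genes). That is 27.8% lower and 8.33% higher, where 6.32% of all 18193 genes were lower and 6.54% higher. All-gene counts were 1190 higher and 1150 lower, and with cyclic loess normalization 879 and 1273, while the members' counts were again 3 higher and 10 lower. The genes that fell were both Insig genes, 6 sterol enzymes, Mbtps2 and Scd1, and those that rose were Srebf1, Abcg1 and Mylip. Differences were small, from -0.60 to 0.35 on the log2 scale, with a median of -0.06 over the members and 0.02 over all genes. All Hyp arrays lay below all WT arrays for 11 members and above them for 3, against 8.89% and 10.3% of all genes. Without WT replicate 3 and Hyp replicate 2, 8 members fell and 3 rose (1096 genes higher and 946 lower in all). With the mean of the 14 muscle markers as a covariate 9 members fell and 3 rose: Ebp and Mbtps2 missed the threshold and Scd2 passed it. Of the probe sets, 15 fell and 4 rose among 83 (adjusted over probe sets, where 7.13% of 45037 changed).

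**Figure D1:**
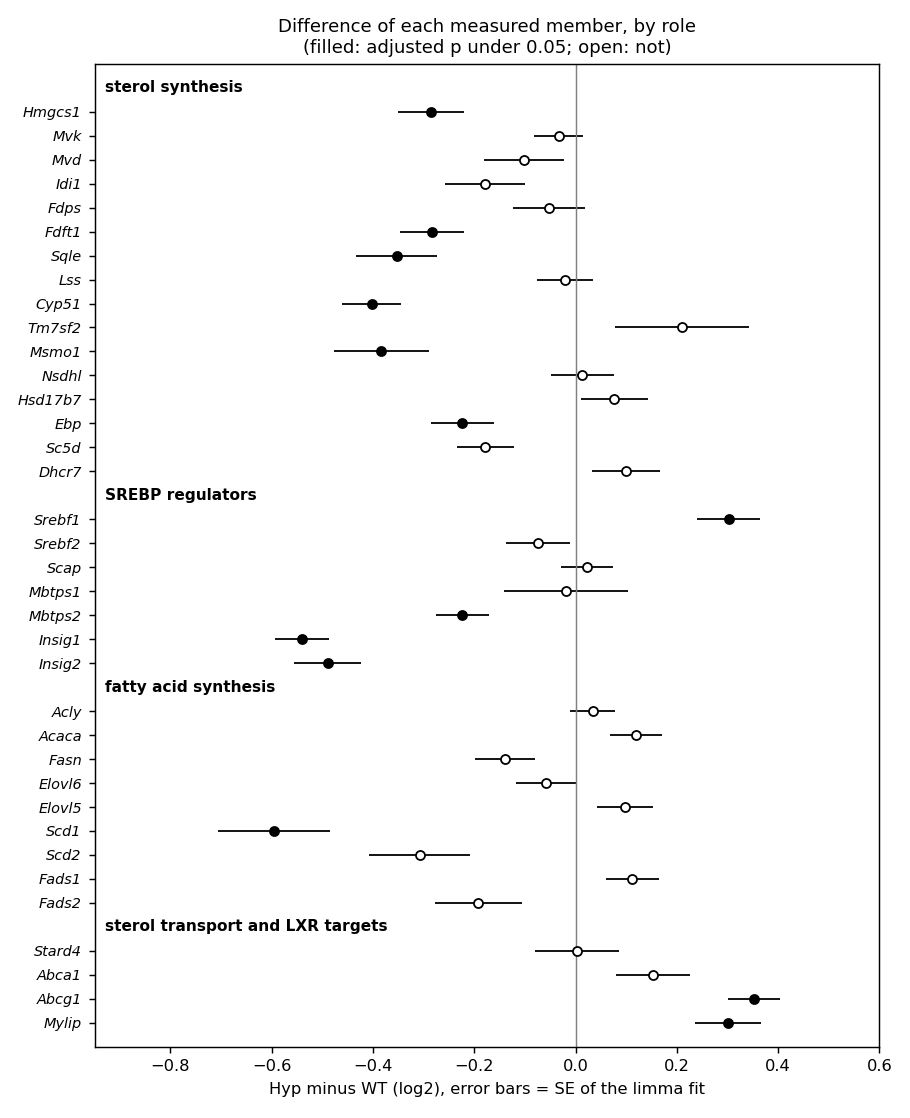
Hyp minus WT difference on the log2 scale (x axis) of the 36 measured members, grouped by role, with the SE of the limma fit. Filled points passed the threshold: 10 lie left of 0, led by Scd1, Insig1 and Insig2, and 3 lie right of it, Srebf1, Abcg1 and Mylip.

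Among the regulators, both Insig genes fell, with the smallest p-values of all members. Insig1, which is itself a target of SREBP, had values of -0.34, -0.21, -0.22 and -0.23 in Hyp bone, against 0.27, 0.33, 0.34 and 0.21 in WT bone. The 2 genotypes lay far apart, and Hyp replicate 1 was the lowest array. The difference was -0.54 ± 0.05 (SE, n = 4 per group; limma adjusted p = 0.000129), or 0.69 times WT. Insig2, the isoform that is not driven by SREBP in the same way, had values of -0.25, -0.31, -0.13 and -0.25 in Hyp bone, against 0.40, 0.15, 0.28 and 0.19 in WT bone. Again no arrays overlapped, and the difference was -0.49 ± 0.07 (SE; limma adjusted p = 0.00089), or 0.71 times WT. All 3 probe sets of Insig2 fell, by between 0.44 and 0.53, while Insig1 had 1 probe set. The drop of both genes passed without any single array. The change in Insig1 minus Insig2 was -0.05 ± 0.08 (SE; exact permutation p = 0.571, two-sided), so the data do not tell their decreases apart.

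Srebf1, which encodes the SREBP that mainly drives fatty acid synthesis, rose. It had values of 0.08, 0.33, 0.16 and 0.12 in Hyp bone, against -0.19, -0.14, -0.08 and -0.11 in WT bone. The Hyp arrays were all higher, Hyp replicate 2 most of all. The difference was 0.30 ± 0.06 (SE, n = 4 per group; limma adjusted p = 0.0104), or 1.23 times WT, at its 1 probe set, whose name ends in _a_at. The array gives 1 value for the gene and does not separate its isoforms. Srebf2, the SREBP that mainly drives sterol synthesis, lay at -0.07 ± 0.06 (limma adjusted p = 0.497), with 2 probe sets of the same sign. Srebf1 minus Srebf2 was 0.20 ± 0.15 in Hyp bone and -0.17 ± 0.12 in WT bone (SD, n = 4 each). No Hyp array overlapped a WT array in that difference (exact permutation p = 0.0286, the smallest that 4 against 4 arrays allow). After adjustment over the 7 pairs of related members compared, a set chosen after the values were seen, it was 0.15.

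Of the 7 regulators 3 fell (42.9%) and 1 rose (14.3%), against 6.32% and 6.54% of all genes. Without WT replicate 3 and Hyp replicate 2, 2 fell and 1 rose. The third to fall was a protease of SREBP. Mbtps2, the site-2 protease, had values of -0.18, -0.15, -0.05 and -0.08 in Hyp bone, against 0.08, 0.05, 0.16 and 0.15 in WT bone, so the groups did not overlap. It fell by 0.22 ± 0.05 (SE; limma adjusted p = 0.0186). Its 1 probe set missed the threshold over all probe sets (limma adjusted p = 0.0508). Mbtps2 lies on chromosome X, as do Phex, Ebp and Nsdhl, and whether its location bears on the drop was not tested. The call was lost without Hyp replicate 1, Hyp replicate 2 or WT replicate 4 (limma adjusted p = 0.0569, 0.0513 and 0.0555), and without both WT replicate 3 and Hyp replicate 2 (0.0762). With the muscle list mean as a covariate it lay at -0.20 ± 0.06 (limma adjusted p = 0.0503). Mbtps1, the site-1 protease, lay at -0.02 ± 0.12 (limma adjusted p = 0.941). WT replicate 3 was at -0.48 for Mbtps1 and the other WT arrays between 0.08 and 0.17. Without that array the difference was -0.17 ± 0.05 (limma adjusted p = 0.0613). Mbtps1 minus Mbtps2 differed by 0.21 ± 0.17 (SE) between the genotypes (exact permutation p = 0.171, adjusted 0.2). Scap, the SREBP escort, lay at 0.02 ± 0.05 (limma adjusted p = 0.826).

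**Figure D2:**
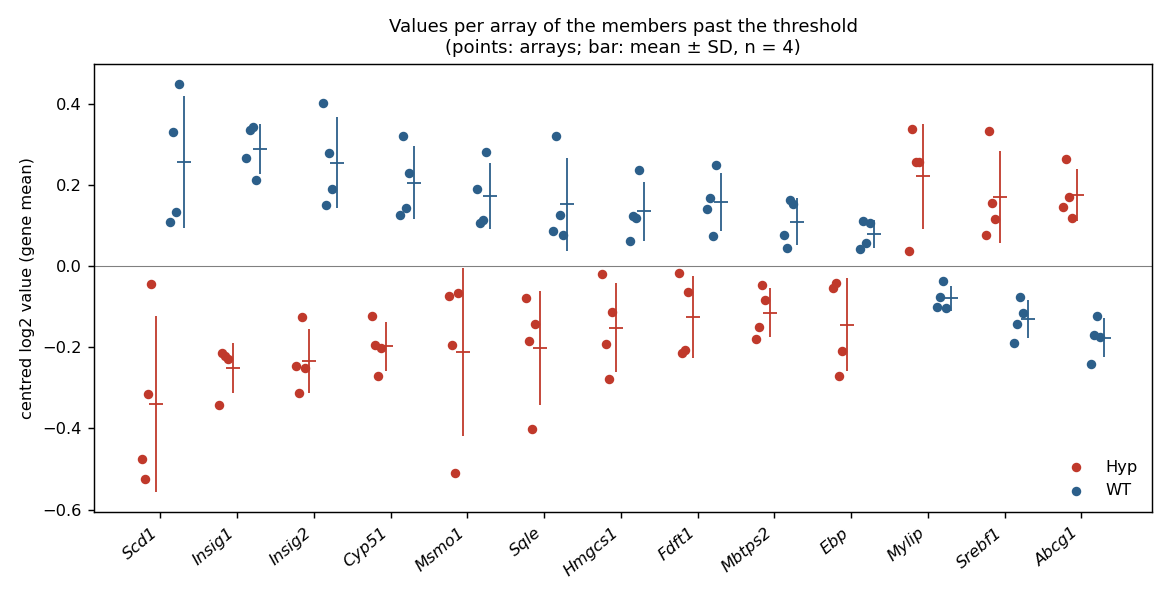
Centred log2 values (y axis) of the 13 members past the threshold, with Hyp arrays in red left of WT arrays in blue, and the mean ± SD (n = 4) beside the points. Hyp arrays lie below WT arrays for the 10 genes from Scd1 to Ebp and above them for Mylip, Srebf1 and Abcg1.

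In the sterol arm 6 of 16 measured enzymes fell (37.5%, against 6.32% of all genes), and the other 10 did not pass. Without WT replicate 3 and Hyp replicate 2, 4 fell, since Hmgcs1 and Msmo1 missed the threshold. The median difference of the arm was -0.14, and 12 of the 16 were below 0 (75%), against 42% of all genes. Averaged over the 16 enzymes, the arrays stood at -0.03, -0.06, -0.16 and -0.05 in Hyp bone, against -0.02, 0.11, 0.06 and 0.08 in WT bone. The groups did not overlap in this mean, but Hyp replicate 1 and WT replicate 1 lay next to each other, and Hyp replicate 3 was the lowest. The enzymes that fell are spread along the route and alternate with others that did not pass.

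In the mevalonate segment Hmgcs1, an HMG-CoA synthase, fell. Its values were -0.02, -0.19, -0.28 and -0.11 in Hyp bone, against 0.06, 0.12, 0.12 and 0.24 in WT bone. The groups were separate but close, with Hyp replicate 1 near WT replicate 1. The difference was -0.29 ± 0.07 (SE, n = 4 per group; limma adjusted p = 0.0166), or 0.82 times WT. All 5 Hmgcs1 probe sets were below 0 and 3 of them passed. Without WT replicate 4 the adjusted p was 0.0501, and without both WT replicate 3 and Hyp replicate 2 it was 0.0582. The later steps of the segment did not pass. Mevalonate kinase (Mvk) lay at -0.03 ± 0.05 and mevalonate diphosphate decarboxylase (Mvd) at -0.10 ± 0.08. Isopentenyl diphosphate isomerase (Idi1) lay at -0.18 ± 0.08 and Fdps at -0.05 ± 0.07. Adjusted p for these 4 ranged from 0.172 to 0.699. The 2 probe sets of Fdps had opposite signs, at -0.30 ± 0.09 and 0.19 ± 0.10, so its mean hides a disagreement.

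Both enzymes that lead from farnesyl diphosphate to squalene epoxide fell. Squalene synthase, Fdft1, had values of -0.02, -0.22, -0.21 and -0.06 in Hyp bone, against 0.14, 0.17, 0.08 and 0.25 in WT bone, with no overlap. It fell by 0.28 ± 0.06 (SE; limma adjusted p = 0.0143), and all 4 probe sets were below 0, 1 of which passed by itself. Squalene epoxidase, Sqle, which carries out a rate-controlling step of the route, had values of -0.08, -0.18, -0.40 and -0.14 in Hyp bone, against 0.09, 0.32, 0.13 and 0.08 in WT bone. Hyp replicate 3 was the lowest array and WT replicate 2 the highest. Sqle fell by 0.35 ± 0.08 (SE; limma adjusted p = 0.0164), or 0.78 times WT, at 1 probe set. Neither gene lost its call without any single array. Lanosterol synthase (Lss), which closes the sterol rings, lay at -0.02 ± 0.06 (limma adjusted p = 0.841), and its 3 probe sets differed in sign.

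Past lanosterol, the demethylase Cyp51 showed the largest drop of the sterol enzymes. It had values of -0.12, -0.20, -0.27 and -0.20 in Hyp bone, against 0.13, 0.32, 0.14 and 0.23 in WT bone. Neither genotype had an array near the other. The difference was -0.40 ± 0.06 (SE, n = 4 per group; limma adjusted p = 0.00136), or 0.76 times WT. Of its 3 probe sets, 2 fell by 0.59 and 0.52 and the third lay at -0.10 ± 0.09. Msmo1, the C4-methylsterol oxidase, had values of -0.07, -0.19, -0.51 and -0.07 in Hyp bone, against 0.19, 0.11, 0.11 and 0.28 in WT bone, with Hyp replicate 3 far below the rest. Msmo1 fell by 0.38 ± 0.09 (SE; limma adjusted p = 0.0232). Its probe sets stood at -0.58 ± 0.11, which passed, and at -0.19 ± 0.11, which did not. Msmo1 missed the threshold when Hyp replicate 2 was left out (limma adjusted p = 0.0512), as it did when WT replicate 1 or 4 was (0.065 and 0.0661), and without both WT replicate 3 and Hyp replicate 2 (0.0571).

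Ebp, the sterol isomerase of the endoplasmic reticulum, had values of -0.05, -0.04, -0.27 and -0.21 in Hyp bone, against 0.04, 0.11, 0.06 and 0.11 in WT bone. The groups did not overlap. Ebp fell by 0.22 ± 0.06 (SE; limma adjusted p = 0.0378), the least firm of the calls. Its 1 probe set missed the threshold over all probe sets (limma adjusted p = 0.0808). Ebp missed the threshold without Hyp replicate 3 or 4 or without WT replicate 1, 2 or 4 (limma adjusted p between 0.0736 and 0.094). With the muscle list mean as a covariate it lay at -0.24 ± 0.07 (limma adjusted p = 0.0506). Sc5d, which desaturates the ring at the next step, lay at -0.18 ± 0.06 (limma adjusted p = 0.0626) although no arrays overlapped. Without WT replicate 4 it was -0.21 ± 0.06 (limma adjusted p = 0.0483). Of its 3 probe sets 1 fell by 0.43 ± 0.10 and another lay at 0.09 ± 0.07.

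The remaining 4 enzymes past lanosterol had differences above 0 and did not pass. Dhcr7, the last reductase before cholesterol, lay at 0.10 ± 0.07 (limma adjusted p = 0.376). Nsdhl and Hsd17b7, which with Msmo1 remove the methyl groups at carbon C4, lay at 0.01 ± 0.06 and 0.08 ± 0.07 (limma adjusted p = 0.919 and 0.496). Tm7sf2, a sterol reductase, was the most scattered enzyme of the arm. Its values were -0.03, 0.05, 0.22 and 0.03 in Hyp bone, against -0.45, -0.09, 0.28 and -0.31 in WT bone, and WT replicate 3 alone was above all others. The Tm7sf2 difference was 0.21 ± 0.13 (limma adjusted p = 0.345), and without WT replicate 3 it was 0.35 ± 0.09 (limma adjusted p = 0.0277).

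**Figure D3:**
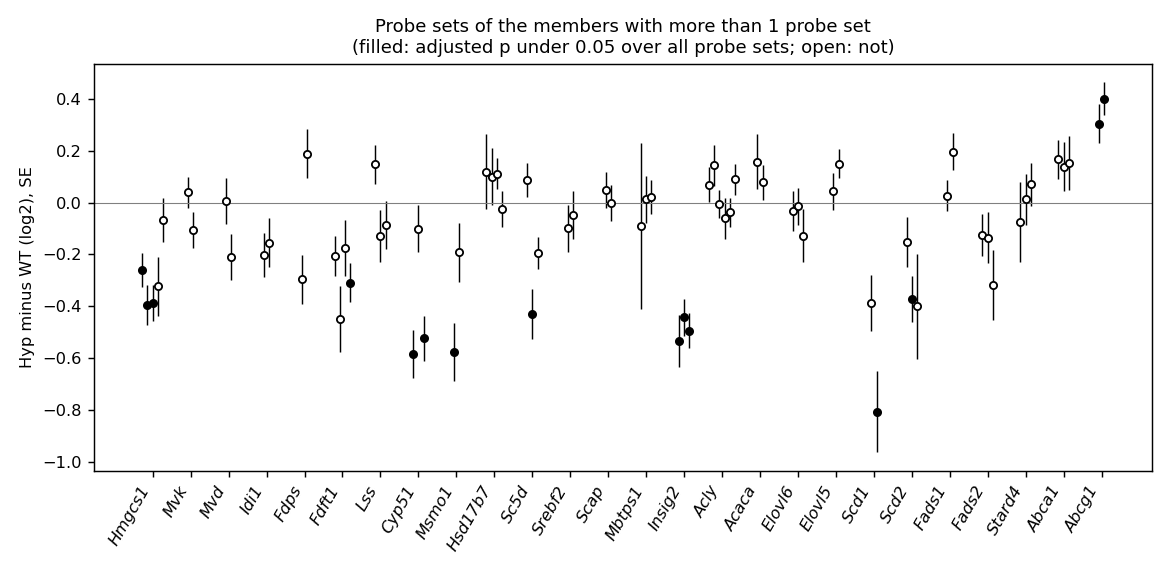
Hyp minus WT difference with SE on the log2 scale (y axis) for each probe set of the 26 members that have more than 1. Filled points passed over all probe sets. The 3 probe sets of Insig2 and both of Abcg1 passed together. In Hmgcs1, Fdft1, Cyp51, Msmo1, Sc5d, Scd1 and Scd2 some passed and some did not.

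In the fatty acid arm 1 of 9 members fell (11.1%, where 6.32% of all genes did), and 2 did so without WT replicate 3, alone or together with Hyp replicate 2. The median difference was -0.06, and it ranged from -0.09 to -0.02 with 1 array left out, the smallest without WT replicate 1. Scd1, the stearoyl-CoA desaturase that makes monounsaturated fatty acids, had the largest difference of all the members. Its values were -0.48, -0.53, -0.31 and -0.04 in Hyp bone, against 0.11, 0.33, 0.13 and 0.45 in WT bone. Hyp replicate 4 lay closest to the WT arrays, and the groups did not overlap. The difference was -0.60 ± 0.11 (SE, n = 4 per group; limma adjusted p = 0.00584), or 0.66 times WT. Its probe sets stood at -0.81 ± 0.16, which passed, and at -0.39 ± 0.11 (adjusted p = 0.0602 over probe sets). The call held without any single array.

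Scd2, the related desaturase, had values of -0.22, 0.04, -0.25 and -0.13 in Hyp bone, against 0.11, 0.31, -0.09 and 0.34 in WT bone. WT replicate 3 and Hyp replicate 2 were the arrays that crossed. Its difference of -0.31 ± 0.10 (SE) did not pass (limma adjusted p = 0.07). Without WT replicate 3 it was -0.39 ± 0.08 (limma adjusted p = 0.0133), and with WT replicate 3 and Hyp replicate 2 both left out it was -0.45 ± 0.07 (limma adjusted p = 0.00636). With the muscle list mean as a covariate it was -0.40 ± 0.08 (limma adjusted p = 0.0139). Scd1 minus Scd2 was -0.20 ± 0.28 in Hyp bone and 0.09 ± 0.10 in WT bone (SD, n = 4 each; exact permutation p = 0.114, adjusted 0.16).

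The enzymes that build the fatty acid chain did not pass. Acly, which makes cytosolic acetyl-CoA from citrate, lay at 0.03 ± 0.05 (limma adjusted p = 0.681) over 6 probe sets. Acaca, the carboxylase that makes malonyl-CoA, lay at 0.12 ± 0.05 (limma adjusted p = 0.166). Fasn, the fatty acid synthase, lay at -0.14 ± 0.06 (limma adjusted p = 0.159). The elongases Elovl5 and Elovl6 lay at 0.10 ± 0.06 and -0.06 ± 0.06 (limma adjusted p = 0.293 and 0.579). Fads1 and Fads2, the desaturases of polyunsaturated fatty acids, lay on opposite sides of 0, at 0.11 ± 0.05 and -0.19 ± 0.09 (limma adjusted p = 0.198 and 0.178). Fads1 minus Fads2 differed by 0.30 ± 0.11 (SE) between the genotypes (exact permutation p = 0.0571, adjusted 0.15). Elovl5 minus Elovl6 differed by 0.16 ± 0.06 (exact permutation p = 0.0857, adjusted 0.15).

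Of the 4 members of sterol transport and LXR response, 2 rose (50%, against 6.54% of all genes). The same 2 rose without WT replicate 3 and Hyp replicate 2. Abcg1, the transporter that passes cholesterol to high-density lipoprotein, had values of 0.15, 0.26, 0.17 and 0.12 in Hyp bone, against -0.24, -0.17, -0.12 and -0.17 in WT bone. Every Hyp array was above every WT array by a clear margin. The rise was 0.35 ± 0.05 (SE, n = 4 in each genotype; limma adjusted p = 0.00141), or 1.28 times WT, and both of its probe sets passed. Mylip, the ubiquitin ligase that marks lipoprotein receptors for breakdown, had values of 0.04, 0.34, 0.26 and 0.26 in Hyp bone, against -0.10, -0.07, -0.04 and -0.10 in WT bone. Hyp replicate 1 was the lowest of its group and still above all WT arrays. Mylip rose by 0.30 ± 0.07 (SE; limma adjusted p = 0.0133), or 1.23 times WT, at 1 probe set. Both calls held without any single array.

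Abca1, the transporter that passes cholesterol to lipid-poor apolipoprotein, did not pass. It had values of -0.09, 0.22, 0.05 and 0.17 in Hyp bone, against -0.04, -0.03, -0.19 and -0.01 in WT bone, where Hyp replicate 1 fell among the WT arrays. The difference was 0.15 ± 0.07 (SE; limma adjusted p = 0.202), with all 3 probe sets above 0. Abca1 minus Abcg1 differed by -0.20 ± 0.08 (exact permutation p = 0.0857, adjusted 0.15). Stard4, a soluble sterol carrier that SREBP induces, lay at 0.00 ± 0.08 (limma adjusted p = 0.989).

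Other genes of the same pathways were taken from 3 lists chosen by function, also with earlier results of these data known. Of 11 further isoprenoid and sterol enzymes measured, 2 fell (18.2%, against 6.32% of all genes) and 9 missed the threshold, and 2 also fell without WT replicate 3 and Hyp replicate 2. Their median difference was -0.04. Ggps1, which makes geranylgeranyl diphosphate from farnesyl diphosphate, fell by 0.28 ± 0.05 (SE; limma adjusted p = 0.00415). Acat1, the mitochondrial acetoacetyl-CoA thiolase, fell by 0.20 ± 0.05 (limma adjusted p = 0.0239).

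Of 17 genes of sterol uptake, storage and oxysterol metabolism, 6 rose (35.3%, against 6.54% of all genes) and 1 fell, with a median of 0.16. Without those 2 arrays 6 rose and 1 fell, but the 6 were not all the same genes. Apoe, the apolipoprotein through which macrophages export cholesterol, rose by 0.73 ± 0.08 (SE; limma adjusted p = 0.000241). Cyp7b1, an oxysterol hydroxylase, rose by 0.31 ± 0.06 and Scarb1, the receptor for high-density lipoprotein, by 0.28 ± 0.06 (limma adjusted p = 0.00609 and 0.00988). Vldlr, a receptor for triglyceride-rich lipoprotein, fell by 0.42 ± 0.08 (limma adjusted p = 0.00508). Of 27 further genes of fatty acid and glycerolipid synthesis, 3 fell (11.1%) and 2 rose (7.41%), near the shares of all genes (6.32% and 6.54%), and the median was that of all genes (0.02). Without those 2 arrays 2 fell and 1 rose, and Tecr missed the threshold. Elovl4, an elongase of very long chains, fell by 0.78 ± 0.11, Me1, the malic enzyme that supplies NADPH, by 0.43 ± 0.06, and Tecr, the reductase of the elongation cycle, by 0.19 ± 0.04 (limma adjusted p = 0.00116, 0.000974 and 0.0188). Lpin1, a phosphatidate phosphatase, rose by 0.35 ± 0.08 (limma adjusted p = 0.0186).

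Markers of several cell types differed between the genotypes together with these genes. In RNA from whole bone, fewer cells of a type and less RNA per cell cannot be told apart. Of 8 measured osteoblast markers 7 fell (87.5%, against 6.32% of all genes). Their list means ran from -0.49 to -0.25 in Hyp bone and from 0.28 to 0.43 in WT bone. Tmem119 fell by 0.75 ± 0.06 (SE; limma adjusted p = 4.89e-05). Of 12 macrophage markers 9 rose (75%, against 6.54% of all genes). Their list means ran from 0.25 to 0.39 in Hyp bone and from -0.41 to -0.25 in WT bone. The macrophage receptor Adgre1 rose by 0.94 ± 0.08 (limma adjusted p = 5.68e-05).

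Of 11 measured adipocyte markers 10 lay above 0 and 1 below, where 10557 of all 18193 genes lay above 0. Their median was 0.11, and their list means ran from 0.00149 to 0.15 in Hyp bone and from -0.11 to -0.03 in WT bone. Cebpa and Fabp4 rose by 0.45 ± 0.08 and 0.55 ± 0.15, and Adipoq, the adipokine adiponectin, fell by 0.46 ± 0.13 (limma adjusted p = 0.00365, 0.0412 and 0.0379). Of 8 erythroid markers 7 rose (87.5%), of 10 proliferation genes 5 rose (50%), and of 12 growth plate chondrocyte markers 6 rose (50%) and 1 fell (8.33%). Of 7 Schwann cell markers 2 rose (28.6%) and 1 fell (14.3%). Over all genes 6.54% rose and 6.32% fell. None of the 14 muscle markers passed in limma, and all 14 lay below 0 (42% of all genes did), with a median of -0.62. Their list means overlapped, from -1.24 to 0.16 in Hyp bone and from -0.60 to 1.86 in WT bone, and the median was 0.21 without WT replicate 3 and Hyp replicate 2. Without those 2 arrays 9 macrophage markers and 7 erythroid markers rose and 6 osteoblast markers fell, 3 proliferation genes rose, and of the growth plate markers 1 rose and 1 fell. Among the adipocyte markers 2 then rose and none fell, so that Adipoq missed the threshold, and among the Schwann cell markers 2 rose. Over all genes 6.02% rose and 5.2% fell without those 2 arrays. Defining markers cannot be called present or absent in centred values. Apart from the macrophage and muscle lists, whose covariate fits are given here, the part of these cell types in the members' differences was not tested.

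With the macrophage list mean as a covariate, limma called 0 of 36 members and 0 of 18193 genes. At an unadjusted p under 0.05, 1 member was lower, and 1060 genes were higher and 726 lower. The macrophage mean did not overlap between the genotypes, so that the median SE of a difference grew to 0.33 with the covariate, against 0.07 without it, over all genes. In that fit Insig1 lay at -0.52 ± 0.29 (SE), Insig2 at -0.42 ± 0.36 and Scd1 at -0.47 ± 0.61. Abcg1 lay at 0.21 ± 0.27, Mylip at 0.04 ± 0.35 and Srebf1 at -0.06 ± 0.32. Adjusted p for the 13 called members ranged from 0.48 to 0.982. Macrophage content and genotype cannot be told apart in these arrays.

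**Figure D4:**
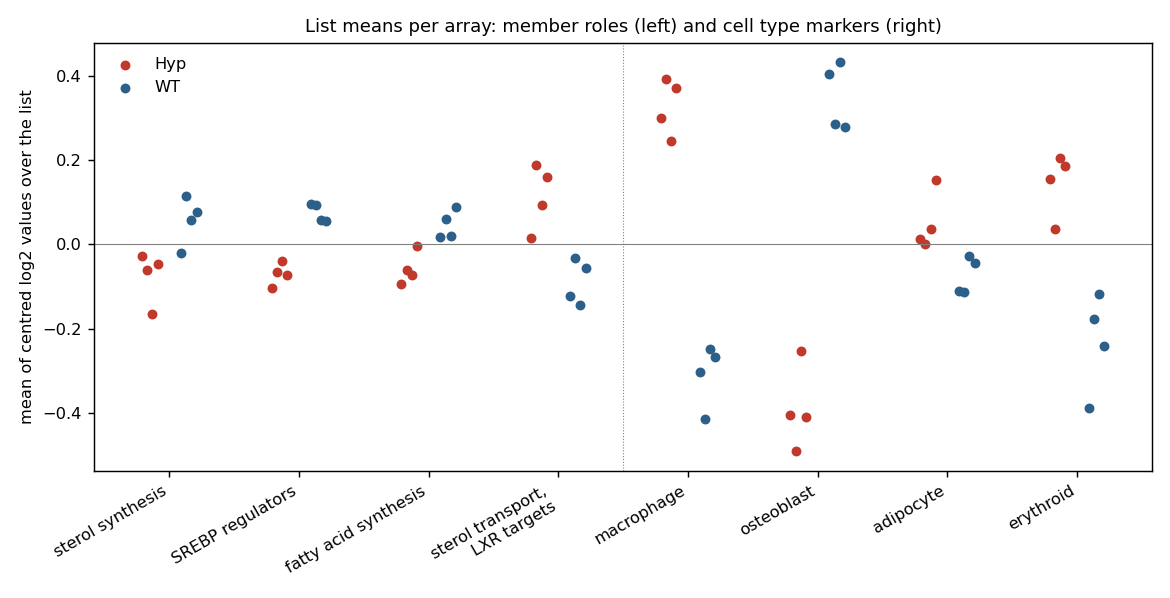
Mean of the centred log2 values over each list (y axis), with the 4 Hyp arrays in red left of the 4 WT arrays in blue. Hyp arrays lie below WT arrays in sterol synthesis, SREBP regulators and fatty acid synthesis and above them in sterol transport, and osteoblast markers lie lower and macrophage and erythroid markers higher in Hyp by more.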

How the data were processed

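The deposited files hold log2 values of each probe set on each array. They were made with RMA, per the submitters' processing notes (version not given in the sources used here). Row medians over the 8 arrays were 0 within 5e-07, which shows a centring by probe set that the labels do not mention. A base of 2 was assumed for the logarithm, because the widest probe set spanned 8.92 units, and in log10 units a 16-bit scanner covers 4.8. No signal over background can be read, and the number of arrays limits the precision.

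Leaving out 64 controls, 45037 of 45101 probe sets were tested. The platform annotation gave 34945 of these 1 symbol, 932 several and 9160 none here. A RefSeq table (GRCm38.p6) gave the current symbol, by gene identifier, for 34741 of them. All probe sets of a symbol were averaged, and 18193 genes were fitted in limma 3.58.1 (R 4.3.3; lmFit, eBayes), Hyp minus WT, without covariates, two-sided, with Benjamini-Hochberg adjustment over all genes and a threshold of 0.05. The fit was tested on simulated data.

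All members are named, and from each other list up to 4 genes past the threshold by smallest p (for cell types, examples among these). The macrophage covariate, the muscle covariate, other normalizations, the replicate block and left-out arrays were alternatives. The members and lists were chosen with earlier results of these data known, and the 7 pairs after the values were seen. Same-numbered arrays deviated together with correlations from -0.01 to 0.18, so the numbers were not used as pairs.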

Additional observations from a re-analysis of the deposited data

Results flagged for a closer look

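In groups of 4 arrays, 1 array lay far from the other 3 in 3 of 80 groups of members or role means examined, where chance gives about 1 in 20. For Mbtps1 in WT bone, replicate 3 was at -0.48 and the others from 0.08 to 0.17. For Insig1 in Hyp bone, replicate 1 was at -0.34 and the others from -0.23 to -0.21, and without it Insig1 fell by 0.51 ± 0.05 (SE; limma adjusted p = 0.000642). For Acly in WT bone, replicate 3 was at 0.0139 and the others from -0.0316 to -0.0259.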

How the results depend on the processing

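With the muscle list mean as a covariate 3 members were higher and 9 lower. Of the 20 alternatives 1, the threshold of 0.1, cannot lose a call. Calls on Insig1, Insig2, Cyp51, Scd1 and Abcg1 lost the threshold in 1 of the 20 each, the macrophage list mean as a covariate. With it no member and no gene passed in limma (0 higher and 0 lower for both; 1060 genes higher and 726 lower at an unadjusted p under 0.05), the fatty acid median was -0.20 and Srebf1 was -0.058 (0.30 without it). At a threshold of 0.01, 1 member was higher and 4 lower, and 407 genes were higher and 618 lower; at 0.1, 1891 genes were higher. With the probe set of the largest SD per gene, the sterol and fatty acid medians were -0.22 and -0.13, and 7 members were lower. Without the 25% of genes with the lowest SD, the fatty acid median was -0.10, over fewer genes. Leaving out 1 array gave 3 to 4 members higher and 7 to 11 lower, 605 (without WT replicate 1) to 1437 genes higher and 805 to 1153 lower. The sterol median then ranged from -0.18 to -0.09 and the fatty acid median from -0.09 to -0.02 (without WT replicate 1). With the replicate number as a block, 3 members were higher and 10 lower, among 1015 and 1063 genes. Ebp missed the threshold and Scd2 passed. Only Hyp replicates 3 and 4 correlated best with the same-numbered WT array. All probe sets with a letter before _at in their names (such as _a_at, _s_at and _x_at) were left out in 1 alternative. There Msmo1 lay at -0.19 (limma adjusted p = 0.304) and Srebf1 could not be measured. Quantile and cyclic loess normalization left 3 members higher and 10 lower. A filter on dim probes needs levels and was not run. The cause of these shifts was not tested.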
